A study of Gallus gallus with 3 samples.

Results

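The gene LITAF was followed in chicken DT40 cells that had lost or kept their own histone variant H2A.Z. LITAF is 1 of 5381 genes that could be named on the array. It was represented by 2 of the 43603 probes that were not controls, namely every such probe that carried its RefSeq accession, NM_204267. The gene was chosen because it was already known to be expressed in wild type and high in both knockout lines. Its levels and differences are therefore given as a description and no test is attached to them. DT40 is a B-cell line grown from a bursal lymphoma of a chicken and is widely used for gene targeting. The 3 groups were wild type, a double knockout (DKO) that carried H2A.Z1, written DKO + H2A.Z1, and a DKO that carried H2A.Z1ΔC, a form cut short at its C-terminus, written DKO + H2A.Z1ΔC. All 3 were DT40 cells. Each group was 1 array of Cy3-labelled total RNA, so no replicate error exists for any value and no p-value is given. How the introduced genes were driven, and whether each line was 1 clone, is not given in the sources used here.

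LITAF encodes a small zinc-binding protein that sits on the cytoplasmic face of late endosomes and lysosomes. In human cells it binds ubiquitin ligases of the NEDD4 family and the endosomal sorting protein TSG101, and its mutation causes a demyelinating form of Charcot-Marie-Tooth disease. The gene was described in human cells as one induced by lipopolysaccharide (LPS) in monocytes and macrophages, where it was linked to transcription of the cytokine TNF. The reference gene table still lists TNF-alpha as a synonym of the chicken gene, although LITAF does not belong to the TNF family. H2A.Z replaces ordinary H2A in some nucleosomes, many of them at gene promoters.

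Of 43590 probes without a poor spot, between 68.7% and 72.6% were well above background on each array, and 0 spots were saturated. The wild-type and DKO + H2A.Z1 arrays lay on slide 1, and the DKO + H2A.Z1ΔC array lay on slide 2, so slide and group cannot be told apart for the truncated line. The targeted gene H2AFZ was lower in both DKO lines at each of its probes. Its log2 differences from wild type were -5.06 and -6.48 in DKO + H2A.Z1 and -6.08 and -7.02 in DKO + H2A.Z1ΔC, and whether these probes also detect the introduced gene is not known. A second, deposited set of values, the series matrix, repeated the scanner signal times a constant for the wild-type and truncated samples. For DKO + H2A.Z1 it held other values that were no multiple of that sample's scanner signal, and both are given wherever they bear on LITAF.

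LITAF was bright on the arrays of both DKO lines and moderate on that of wild type. At probe 1 the processed signal, a linear brightness after removal of background, was 1487.5 ± 148.8 in wild type, 37402.8 ± 3740.3 in DKO + H2A.Z1 and 21672.4 ± 2167.2 in DKO + H2A.Z1ΔC, where the errors are the scanner software's own estimates for a single spot. At probe 2 it was 343.1 ± 34.4, 10108.6 ± 1010.9 and 6262.9 ± 626.3 in the same order. At either probe both DKO arrays lay far above wild type, as the choice of the gene implied. The errors describe the reading of a spot and leave out culture, RNA preparation and labelling.

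Because the truncated array was dimmer as a whole, levels were expressed as log2 of the processed signal above the 75th percentile of the array. That percentile was 1455.4 in wild type, 1557.5 in DKO + H2A.Z1 and 1039.2 in DKO + H2A.Z1ΔC. On this scale probe 1 stood at 0.03 in wild type, 4.59 in DKO + H2A.Z1 and 4.38 in DKO + H2A.Z1ΔC. Probe 2 stood at -2.08, 2.70 and 2.59. Averaged over both probes, the LITAF level was -1.03, 3.64 and 3.49. Wild type was thus lowest, and the DKO lines lay close together at the top.

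**Figure D1:**
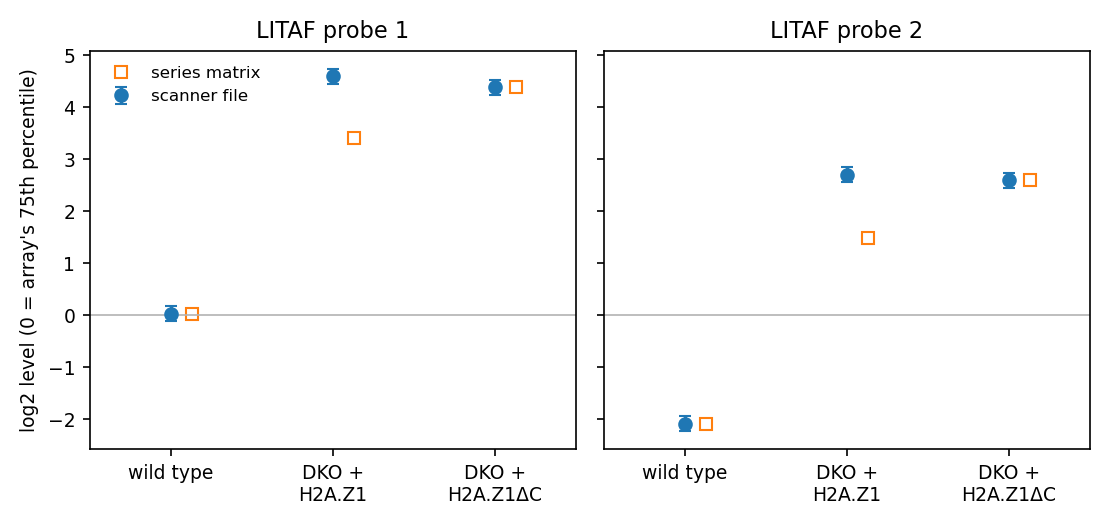
LITAF log2 level at each of its probes (vertical axis, 0 is the 75th percentile of the array) in the 3 groups, 1 array each. Filled points are scanner values with the scanner software's error and open squares are the series matrix values. Both DKO lines lie above wild type at either probe, and only for DKO + H2A.Z1 do the point and the square separate, at 4.59 and 3.41 for probe 1.

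The transcript was already detected in wild-type cells. The raw spot signal there was 65.9 times the local background at probe 1 and 14.8 times at probe 2, and both spots met the scanner's criterion for being well above background. In DKO + H2A.Z1 the same ratios were 1397.2 and 381.4, and in DKO + H2A.Z1ΔC 846.7 and 257.5. Among probes well above background, probe 1 was brighter than 64.6% in wild type, 96.1% in DKO + H2A.Z1 and 95.6% in DKO + H2A.Z1ΔC. Probe 2 was brighter than 43.7%, 87.4% and 87.3%. Such ranks order the brightness of spots, which depends on the probe sequence as well as on the amount of transcript. The brightest LITAF spot, with a raw signal of 37724.5, stayed far under the saturation value of 778168.

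In DKO + H2A.Z1 against wild type the log2 difference of LITAF was 4.55 at probe 1 and 4.78 at probe 2, or 23.5-fold and 27.5-fold. Both of its probes were therefore higher by a log2 difference of 1 or more, the size from which a probe was counted as different here. In the same direction, 1.43% of the 29224 probes measured on both arrays reached that size. Since LITAF was selected on this contrast, nothing is read from that count. Among these probes its differences ranked 13 and 9 from the top. As the mean of both probes the difference was 4.67, or 25.4-fold, and it ranked 3 of 4193 named genes. These arrays shared a slide and a scan. Array data on a whole culture do not tell a higher level in every cell from a high level in part of the cells.

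In DKO + H2A.Z1ΔC against wild type the log2 difference was 4.35 at probe 1 and 4.68 at probe 2, or 20.4-fold and 25.6-fold. Again both probes passed a log2 difference of 1, as did 3.86% of 29586 probes in the same direction. The mean of both probes was 4.51 higher, or 22.8-fold, and ranked 6 of 4193 genes. Without any scaling between arrays, the raw spot signal differed 13.9-fold at probe 1 and 16.7-fold at probe 2. Both comparisons used the same wild-type array and are not independent of each other.

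Between the DKO lines LITAF was similar by the scanner values. The log2 difference of DKO + H2A.Z1ΔC from DKO + H2A.Z1 was -0.20 at probe 1 and -0.11 at probe 2, with a mean of -0.16, and 0 of 2 probes passed a difference of 1, against 5.32% of 29492 probes in either direction. The size of this mean was below the robust standard deviation of 0.322 that all 4193 genes had in the same comparison. The series matrix gave another order. There probe 1 differed by 0.97 and probe 2 by 1.10, with a mean of 1.04, so LITAF was 2.05-fold higher in DKO + H2A.Z1ΔC and ranked 67 of 4193 genes from the top. The order of the DKO lines in LITAF therefore depended on which deposited values of DKO + H2A.Z1 were used. Their position above wild type did not, because the matrix put DKO + H2A.Z1 at 3.38 and 3.57 above wild type, or 10.4-fold and 11.9-fold.

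The probes of LITAF gave like differences. They disagreed by 0.23 on the log2 scale in DKO + H2A.Z1 against wild type, by 0.33 in DKO + H2A.Z1ΔC against wild type and by 0.10 between the DKO lines. Over 1389 named genes with a pair of measured probes, the standard deviation of this disagreement was 0.263, 0.419 and 0.348. The LITAF disagreement was within 1 standard deviation each time, although in the first comparison it was larger than that of 83.2% of these genes. Spots of the same probe printed 5 times on an array spread less, with a standard deviation of the difference between 0.0442 and 0.0620 over 34 probes. The scanner's own errors gave 0.204 for a log2 difference at either probe.

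Position on the slide was examined because the probes lay far apart, at row 205 and column 81 and at row 384 and column 12. Within 10 rows and 5 columns of probe 1, 128 spots measured on all arrays had a median log2 difference of -0.02 in DKO + H2A.Z1 against wild type and 0.03 in DKO + H2A.Z1ΔC against wild type. Around probe 2, 162 spots had medians of 0.01 and 0.04. The medians of the spots around LITAF thus lay near 0 in both comparisons, while single spots spread widely. The highest of these spots reached 3.33 in the first comparison and 4.45 in the second, both around probe 2. The lowest were at -2.58 and -2.64, both around probe 1.

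Among the named genes with large differences in both lines, LITAF was read from comparatively bright wild-type spots. Of 4193 genes, 35 were higher by 1 or more in both DKO lines, and their median wild-type level was -3.78, against -1.03 for LITAF, which ranked 3 among them. Only 13 genes were higher by 2 or more in both lines, with a median wild-type level of -4.99, and LITAF had the highest wild-type level of the 13. No other named gene at or above its wild-type level met that condition. LITAF was chosen partly for this starting level, so nothing is read from its place in these rankings. Over all probes, named or not, some others had higher wild-type levels. A log2 difference of 1 or more in both lines was found for 271 of 29004 probes, and by wild-type level the LITAF probes ranked 14 and 47 among them. At 2 or more they ranked 2 and 6 of 62 probes, at 3 or more 1 and 3 of 23, and at 4 or more 1 and 2 of 13, of which 7 were named. These counts leave out 488 probes that were not well above background in wild type alone, for which only a bound on the fold exists. Of these, 15 were at least 16-fold higher in both DKO lines.

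The genes higher by 3 or more in both lines were LITAF and the following 4. TST, a mitochondrial sulfurtransferase, had a wild-type level of -5.61 and differences of 6.46 in DKO + H2A.Z1 and 5.77 in DKO + H2A.Z1ΔC. RGS20, a regulator that shortens G-protein signals, started from -5.91 and differed by 5.03 and 6.17. MAPK11, a p38 stress kinase, started from -5.15 at its brightest probe and differed by 4.65 and 5.37. FABP5, which carries fatty acids inside cells, started from -4.99 and differed by 3.18 and 5.70. Levels of different genes come from different probes and are no measure of relative transcript amount, as the probes of LITAF itself, at 0.03 and -2.08 in wild type, show.

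**Figure D2:**
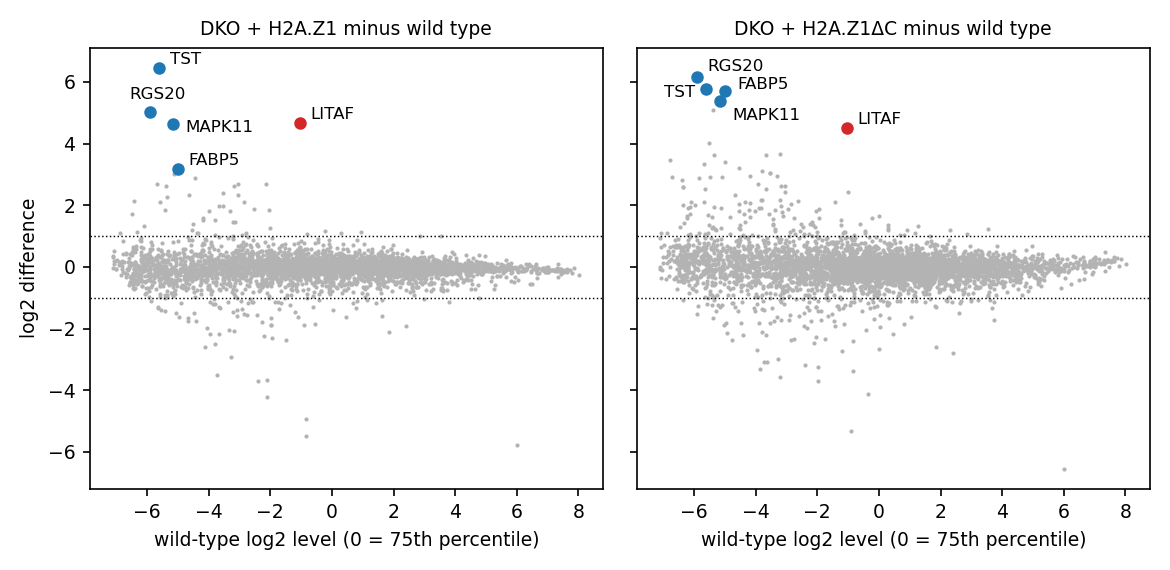
Log2 difference from wild type (vertical) against wild-type log2 level (horizontal) for 4193 named genes, in DKO + H2A.Z1 (left) and DKO + H2A.Z1ΔC (right). Dotted lines mark differences of 1 and -1. LITAF (red) lies to the right of the other genes with differences above 3 in both lines (blue), at a wild-type level of -1.03.

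A dim starting level makes a fold depend on how background is removed, and the LITAF difference depended on it little. With the normexp background model, which adds an offset of 50, and scaling to the 75th percentile, the LITAF difference was 4.51 in DKO + H2A.Z1 and 4.35 in DKO + H2A.Z1ΔC. That of TST went from 6.46 to 4.86 and from 5.77 to 4.11, and that of RGS20 from 5.03 to 3.31 and from 6.17 to 4.37. MAPK11 went from 4.65 to 3.30 and from 5.37 to 4.06, and FABP5 from 3.18 to 2.12 and from 5.70 to 4.45. In this setting LITAF ranked 2 and 3 of 4193 genes in DKO + H2A.Z1 and DKO + H2A.Z1ΔC. An added offset lowers the fold of a gene with a dim wild-type spot more than that of a brighter one. LITAF was chosen partly for its wild-type level, so nothing is read from this contrast or from these ranks.

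The genes with the pattern most like that of LITAF were sought by the Euclidean distance between the pairs of differences from wild type, over the 3753 genes whose probes were all well above background on all 3 arrays. Only 2 differences define this pattern, both against one wild-type array, so the likeness says where a gene lies in the comparison of the plot and no more. The nearest of these genes was RGS20 at a distance of 1.69. FABP5 followed at 1.90, then ANXA5, which binds phosphatidylserine on membranes, at 2.12, TST at 2.19 and LRRC40, a protein with leucine-rich repeats, at 2.70. The median distance of all genes was 6.51. ANXA5 differed by 2.63 in DKO + H2A.Z1 and by 5.10 in DKO + H2A.Z1ΔC, and LRRC40 by 2.40 and 3.04. MAPK11 fell outside the rule because 2 of its 3 probes were not well above background in wild type. By its measured probe it differed by 4.65 and 5.37, which is closer to LITAF than RGS20 was.

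With the series matrix values LITAF itself moved to 3.48 and 4.51, and the list became MND1, which acts in meiotic recombination, at a distance of 0.94, ANXA5 at 1.08, LRRC40 at 1.71, PFKFB4, a regulator of glycolysis, at 1.88 and LOC395551 at 1.97. ANXA5 and LRRC40 were thus the genes near LITAF with both sets. FABP5 left the list, since the matrix value of DKO + H2A.Z1 lay 3.03 below wild type for it and not above. By the scanner values PFKFB4 and LOC395551 differed from wild type by 0.86 and -0.27 in DKO + H2A.Z1, so neither was higher by 1 there.

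**Figure D3:**
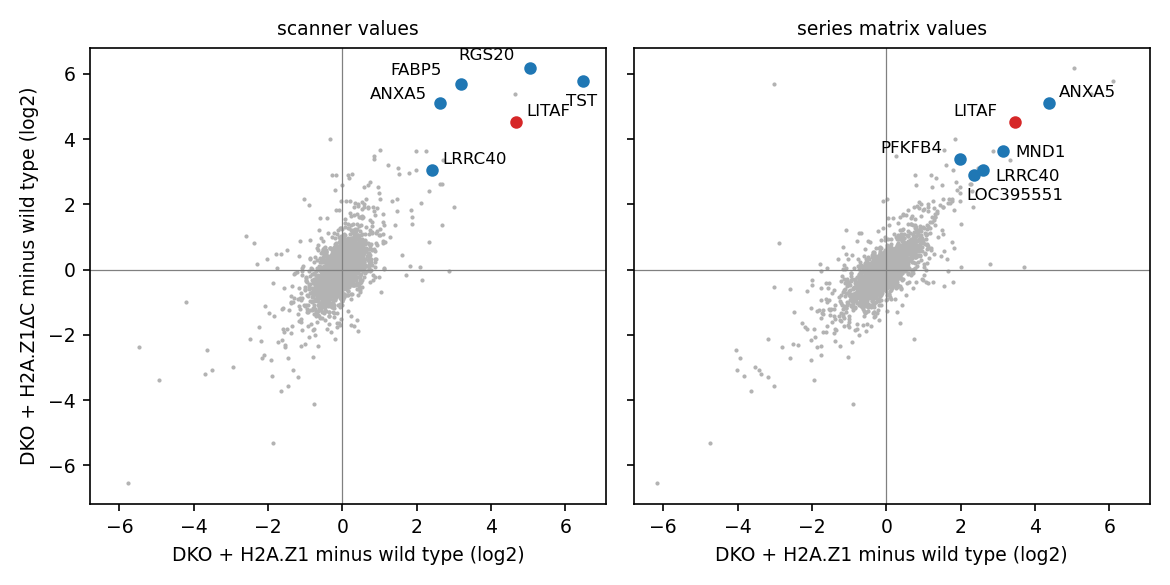
Differences from wild type in DKO + H2A.Z1 (horizontal, log2) and DKO + H2A.Z1ΔC (vertical, log2) for 4193 named genes, with scanner values (left) and series matrix values (right). Both axes share the wild-type array. LITAF (red) lies at 4.67 and 4.51 on the left and at 3.48 and 4.51 on the right, with the 5 nearest genes by rule in blue.

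Neighbouring genes were examined in the gene order of assembly GRCg7b, 5 measured genes on each side of LITAF. The span held 45 annotated genes besides LITAF, 30 of them protein-coding, of which 10 were named on the array and measured, so most neighbours have no value here. The nearest measured genes were PLA2G10, a secreted phospholipase, 5 genes away on one side and EIF2AK1, the haem-regulated kinase of translation initiation, 3 genes away on the other. PLA2G10 differed from wild type by -0.23 in DKO + H2A.Z1 and 0.11 in DKO + H2A.Z1ΔC, and EIF2AK1 by 0.04 and -0.02. PARN, a poly(A) ribonuclease, differed by 0.26 and 0.44, and RSL1D1, a nucleolar protein, by -0.03 and 0.42. CPPED1, GSPT2, ANKRD61, CCZ1 and BAIAP2L1 lay between -0.39 and 0.67 in both comparisons.

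The exception was OCM3, of the oncomodulin family of calcium-binding proteins, 12 genes away. Its probe 1 stood at -5.12 in wild type, -2.11 in DKO + H2A.Z1 and -3.21 in DKO + H2A.Z1ΔC, a difference of 3.01 and of 1.90 from wild type, and 2.34 in DKO + H2A.Z1 with the matrix values. Its probe 2 was not well above background in wild type and gave at least 1.47-fold in DKO + H2A.Z1. The related gene OCM1, in the same span, was not well above background on any array. Whether these probes tell the family members apart is not known. Over all 10 neighbours the median difference was 0.01 in DKO + H2A.Z1 and 0.05 in DKO + H2A.Z1ΔC, and 1 of 10 was higher by 1 or more in each. Of all genes, 1.17% and 3.32% were higher by that much.

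**Figure D4:**
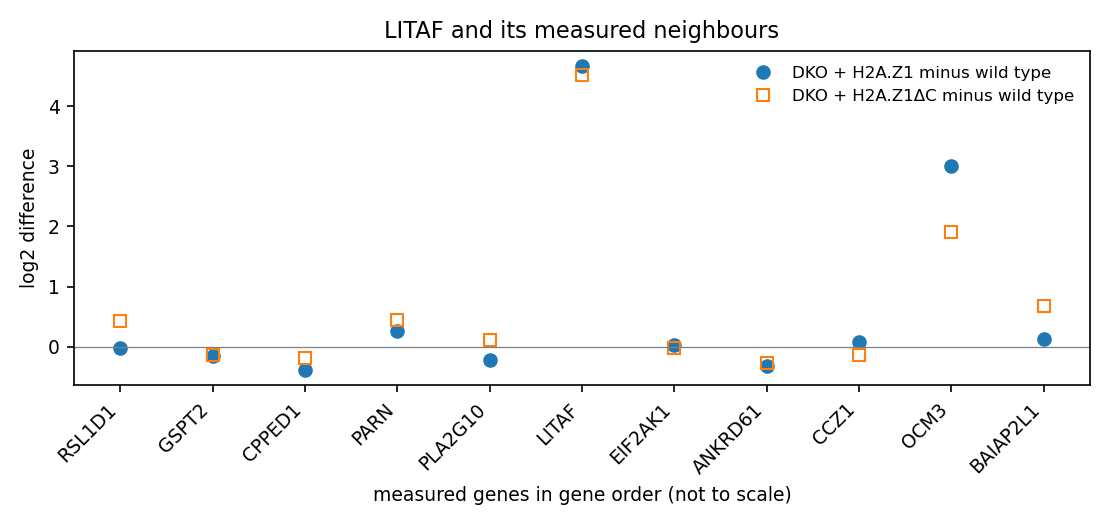
Log2 difference from wild type for LITAF and its 10 nearest measured genes in gene order (horizontal, not to scale), in DKO + H2A.Z1 (filled) and DKO + H2A.Z1ΔC (open). The neighbours other than OCM3 lie between -0.39 and 0.67, while OCM3 lies at 3.01 and 1.90.

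The endosomal sorting machinery, in which the LITAF protein works, had differences from -0.76 to 0.18 against wild type. Of 37 listed genes 20 were named on the array and 19 were measured on all arrays, the exception being CHMP4C. None passed a log2 difference of 1 (0 of 19 in each comparison), against 3.08% of all 4193 genes in either direction in DKO + H2A.Z1 against wild type, 6.73% in DKO + H2A.Z1ΔC against wild type and 4.36% between the DKO lines. Of all genes 1.17% were higher and 1.91% lower by that much in DKO + H2A.Z1 against wild type, and 3.32% and 3.41% in DKO + H2A.Z1ΔC. The medians were -0.10, -0.22 and -0.09, beside -0.02, 0.00 and 0.01 for all genes. TSG101, which recruits ubiquitinated cargo, differed from wild type by 0.00 and -0.13, and CDIP1, a relative of LITAF with the same zinc-binding domain, by -0.03 and -0.31. WWOX, a WW-domain protein that binds LITAF in human cells, differed by -0.44 and -0.27, and CHMP1A, an ESCRT-III subunit, had the lowest values at -0.76 and -0.67. With the matrix values of DKO + H2A.Z1 1 of 19 passed, CHMP1A on the lower side, where 5.44% of all genes passed in either direction. A count of 0 or 1 of 19 is near these shares.

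Lysosomal genes were measured for 21 of 22 on the array. In DKO + H2A.Z1 against wild type 0 were higher and 1 was lower by 1 or more. This was CTSS, the cathepsin that trims the invariant chain of MHC class II, with a level of 1.64 in wild type and a difference of -1.09. With the matrix values the call turned over, since CTSS was at -0.73 and CTSV at 1.99, so 1 was higher and 0 lower. In DKO + H2A.Z1ΔC 2 were higher and 0 lower. CTSB, a lysosomal cysteine protease, differed by 1.40 and CTSV, the entry to which the listed name CTSL resolved, by 2.34. By comparison, 1.17% of all genes were higher and 1.91% lower in DKO + H2A.Z1, and 3.32% and 3.41% in DKO + H2A.Z1ΔC. Nothing is read from counts this small. The median of the list was 0.09 in DKO + H2A.Z1 and 0.28 in DKO + H2A.Z1ΔC. LAMP1 and LAMP2, which coat the lysosomal membrane, each differed by 0.22 and 0.50.

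Genes of LPS and NF-kB signalling were measured for 11 of 12 on the array. The other, CD14, also a macrophage marker, was well above background in wild type alone, at -5.66. Its wild-type signal was at least 3.10-fold higher than in DKO + H2A.Z1 and at least 3.83-fold higher than in DKO + H2A.Z1ΔC. Of the 11 measured, 0 were higher and 2 lower in DKO + H2A.Z1, and 0 were higher and 1 lower in DKO + H2A.Z1ΔC. TLR4, the LPS receptor, stood at -3.33 in wild type, -5.37 in DKO + H2A.Z1 and -3.02 in DKO + H2A.Z1ΔC by 1 of its 2 probes, so it differed from wild type by -2.04 and 0.31. IRF1, an interferon-induced transcription factor, differed by -1.54 and -2.38. With the matrix values 0 were again higher and 2 lower in DKO + H2A.Z1, with TLR4 at -1.30 and IRF1 at -1.86. The adaptor MYD88 differed by 0.09 and -0.18, the NF-kB subunit NFKB1 by -0.03 and 0.26, and its inhibitor NFKBIA by -0.19 and -0.06. The list medians were 0.03 and 0.26. By comparison, 1.17% of all genes were higher and 1.91% lower by 1 or more in DKO + H2A.Z1, and 3.32% and 3.41% in DKO + H2A.Z1ΔC. Nothing is read from counts this small.

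Ligands, receptors and mediators of inflammation were mostly dim. Of 24 on the array 14 were measured on all arrays, with a median wild-type level of -3.42. TNFSF15, a TNF-family cytokine, was not well above background at any of its 4 probes on any array, and neither were IL6 and PTGS2. Against wild type, 1 of 14 was lower in DKO + H2A.Z1, namely TNFRSF1A, a TNF receptor, with -1.10. It differed by 0.05 in DKO + H2A.Z1ΔC. With the matrix values of DKO + H2A.Z1 it was at -0.88, and TNFSF8, a TNF-family ligand, was the 1 lower gene with -1.12. In DKO + H2A.Z1ΔC 1 was higher and 1 lower. TNFRSF13B, a receptor of B cells for the survival factor BAFF and its relative APRIL, differed by 1.66, with 1.65 and 1.66 at its probes, and TNFSF13B, which encodes BAFF, by -1.33. IL18 was lower by 1.71 in DKO + H2A.Z1 at probe 1 and at least 11.5-fold lower in DKO + H2A.Z1ΔC. The list medians were -0.07 and 0.03. By comparison, 1.17% of all genes were higher and 1.91% lower by 1 or more in DKO + H2A.Z1, and 3.32% and 3.41% in DKO + H2A.Z1ΔC. Nothing is read from counts this small.

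Over the 65 measured genes of these 4 lists the highest difference from wild type was 0.97 in DKO + H2A.Z1 and 2.34 in DKO + H2A.Z1ΔC, both at CTSV, while LITAF stood at 4.67 and 4.51. With the matrix values of DKO + H2A.Z1 CTSV was at 1.99 and LITAF at 3.48. Since LITAF was chosen for its rise, nothing is read from its place above these genes.

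**Figure D5:**
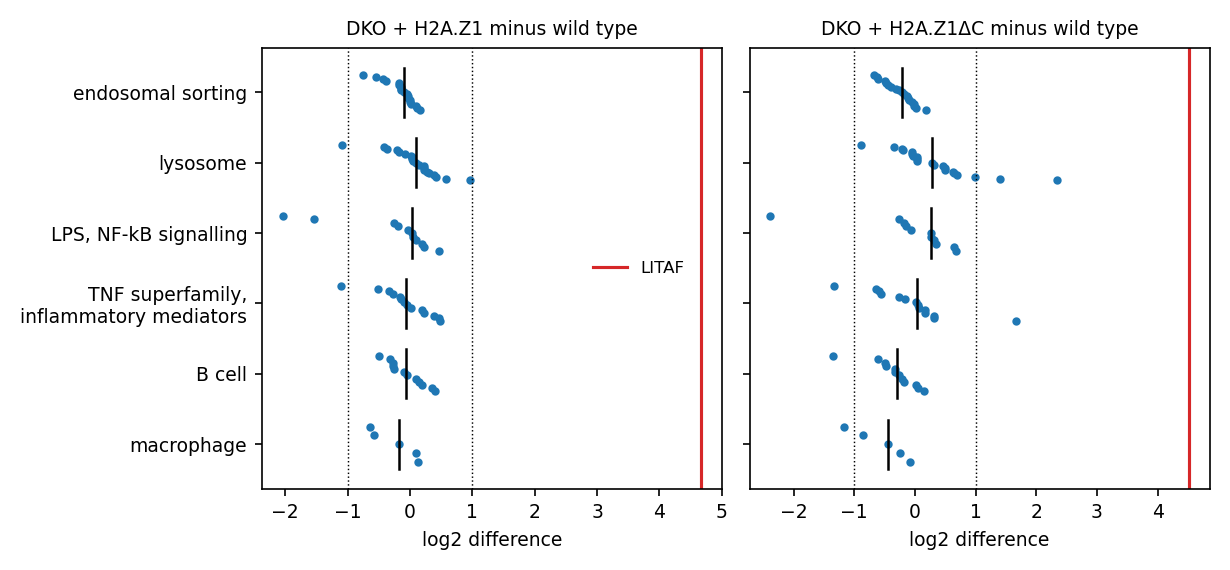
Log2 difference from wild type of the measured genes of 6 lists (points, 1 per gene, with a black bar at the list median) in DKO + H2A.Z1 (left) and DKO + H2A.Z1ΔC (right). Dotted lines mark 1 and -1. All listed genes lie to the left of the red line, which marks LITAF, chosen for its rise, at 4.67 and 4.51.

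Markers of the labelled cell type were present. All 12 of the B-cell markers examined were well above background on all 3 arrays, and CD79B, a chain of the B-cell receptor complex, stood at 4.68 in wild type with differences of 0.19 and 0.15. CD74, the MHC class II invariant chain, was lower by 1.35 in DKO + H2A.Z1ΔC. The median difference of the 12 was -0.07 in DKO + H2A.Z1 and -0.29 in DKO + H2A.Z1ΔC, beside -0.02 and 0.00 for all genes. Their summed signal, in multiples of the 75th percentile, was 110.8 in wild type, 105.9 in DKO + H2A.Z1 and 93.57 in DKO + H2A.Z1ΔC. The lower sum in DKO + H2A.Z1ΔC rests mostly on CD74, whose probe 1 stood at 5.51 in wild type and 4.09 there. Of the 8 macrophage markers on the array 5 were measured. Among the measured ones 0 were higher by 1 or more in either line, against 1.17% and 3.32% of all genes. Summed over these 8, the signal in multiples of the 75th percentile was 1.05 in wild type, 0.951 in DKO + H2A.Z1 and 0.694 in DKO + H2A.Z1ΔC. The sum rests mostly on SPI1, a transcription factor that B cells also express, with levels of -0.50, -0.68 and -1.36. CYBB, of the phagocyte oxidase, and LYZ, lysozyme, differed from wild type by 0.13 and 0.09 in DKO + H2A.Z1 and by -0.08 and -0.25 in DKO + H2A.Z1ΔC. CEBPA, a myeloid transcription factor, was lower by 1.17 in DKO + H2A.Z1ΔC, and with the matrix values by 1.07 in DKO + H2A.Z1. CD14, given above as a bound, was well above background in wild type alone. C1QC and the T-cell marker CD4 were not well above background on any array by the scanner values. With the matrix values of DKO + H2A.Z1, CD4 differed from wild type by 1.22 at probe 1 and 4.23 at probe 2, and C1QC by 0.08. Some other probes not well above background on any array differed about as much as CD4 probe 1 there. IL6 probe 2 was at 1.29 and FN1 probe 6 at 1.19, so the 1.22 is not read as a difference of CD4.

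Of markers of other cells, 3 T-cell and 3 fibroblast genes were measured. In each of these lists 1 gene was higher by 1 or more in DKO + H2A.Z1, as were 1.17% of all genes. CD3E, a T-cell receptor chain, was higher by 2.09 as a mean of 2 measured probes that disagreed at 0.78 and 3.41, and by 3.72 with the matrix values. The other measured T-cell markers, CD8A and CD28, differed by -0.001 and -0.05. At another CD28 probe the wild-type signal was at least 2.28-fold higher than in DKO + H2A.Z1. COL1A2, a collagen chain, was higher by 1.83, and by 0.22 with the matrix values. The fibroblast marker VIM differed by 0.70 in DKO + H2A.Z1. Probes of FN1, the fibronectin gene, disagreed. Against wild type, DKO + H2A.Z1 was at least 8.21-fold higher at probe 5, and at probe 8 the wild-type signal was at least 6.28-fold higher than in DKO + H2A.Z1. With the matrix values of DKO + H2A.Z1 probe 5 differed by 1.29 and probe 8 by -3.58. Probe 3, not well above background on any array, differed by 1.26 there. The summed signal of 4 T-cell markers was 0.0455, 0.109 and 0.0497 in wild type, DKO + H2A.Z1 and DKO + H2A.Z1ΔC, and that of 4 fibroblast markers was 0.0953, 0.319 and 0.0902. The higher T-cell sum in DKO + H2A.Z1 rests mostly on CD3E probe 2, at -5.71 in wild type and -2.30 there. The higher fibroblast sum rests mostly on COL1A2 probe 1, at -2.23 in wild type and 0.06 in DKO + H2A.Z1. The sum of 3 red-cell markers was 0.140, 0.120 and 0.122. The globin gene HBA1 was lower than in wild type by 1.43 and 1.23 at 1 of its 2 probes. HBBA differed by -0.71 and -0.53 and HBAD by -0.11 in both lines. All 3 are globin genes and the protocols name a globin depletion, whose part in these values was not tested. The collagen gene COL3A1 differed by -0.23 in DKO + H2A.Z1 and was lower by 1.17 in DKO + H2A.Z1ΔC. These values are means of the 2 measured of its 10 probes, which disagreed in DKO + H2A.Z1ΔC at -0.45 and -1.89. With the matrix values of DKO + H2A.Z1 the same probes differed from wild type by 0.40 and -2.19. The part of any of these markers, or of the cells they mark, in the LITAF values of either line was not tested.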

How the data were processed

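RNA of each DT40 line was hybridised, with Cy3 as its only dye, to 1 Agilent chicken array per group. Per the labels' protocols the RNA came from a blood kit followed by globin depletion. Agilent Feature Extraction 11.5.1.1 made the deposited intensity, per the file headers. This processed signal was corrected for background and spatial trend within each array, without scaling between arrays. The array was annotated on galGal3. The deposited series matrix is an intensity on a linear scale whose making is not given in the sources used here. Spot by spot, the matrix was 1.07 times the processed signal for wild type and 1.53 times for the truncated line, and no multiple of it for the full-length line. In the last case the log2 ratio had a robust standard deviation of 0.322. The number of unmapped columns was 0.

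Controls and 13 probes with an outlier or manual flag were left out. Values are log2 of the processed signal minus the 75th percentile of the array. Unversioned accessions were looked up in a RefSeq gene table (GRCg7b), by which 11929 probes (27.4%) received names of 5381 genes. Gene values are means over probes well above background on all arrays, so members measured through one bright group alone are given as bounds against the higher of the dim signal and the lowest signal well above background. A difference was counted from 1 on the log2 scale. Named genes were LITAF, the 5 nearest patterns, 5 measured neighbours per side, list genes past the threshold and genes at least as bright in wild type; others were named after their values were seen. LITAF, the lists and the rules were chosen with earlier results of these data known. With 1 array per group no test was possible. Alternatives were median scaling, quantile normalization, cyclic loess, normexp (limma 3.58.1, R 4.3.3, offset 50, on median spot signals), the matrix values, removal of a polynomial surface of degree 5, single probes, no filter on dim probes, a threshold of 1.5-fold and genes in place of probes. Some listed items are not reported here. Counting was tested on simulated data.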

Additional observations from a re-analysis of the deposited data

How the results depend on the processing

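The LITAF difference from wild type was positive in all 8 settings of background, scaling and source, between 3.48 and 4.70 in DKO + H2A.Z1 and between 4.34 and 4.52 in DKO + H2A.Z1ΔC, with gene ranks of 2 to 6 in both. It moved beyond the spread between probes of a gene with the matrix values alone, to 3.48 in DKO + H2A.Z1 and to 1.04, from -0.16, between the DKO lines. The cause was not tested. Levels depend on the reference point. With median scaling they were 2.69 in wild type, 7.39 in DKO + H2A.Z1 and 7.14 in DKO + H2A.Z1ΔC. By normexp the wild-type level was -0.85 with the 75th percentile and -0.84 with quantile normalization, and the matrix put DKO + H2A.Z1 at 2.45. Probe 1 alone gave 0.03, 4.59 and 4.38 and probe 2 alone -2.08, 2.70 and 2.59. The number of probes past a difference of 1 was 1072 in DKO + H2A.Z1 against wild type, 2254 in DKO + H2A.Z1ΔC against wild type and 1569 between the DKO lines. It was 446, 1098 and 650 with normexp and quantile normalization, 3258, 6305 and 4848 at 1.5-fold, and 129, 282 and 183 with genes, of which fewer were tested. In the first comparison it was also 2093 with the matrix values and 1671 without a filter on dim probes. List counts in DKO + H2A.Z1 with the matrix values were an alternative chosen after seeing the data. They are given beside the endosomal, lysosomal, signalling and inflammation lists. For the B-cell, macrophage, T-cell, red-cell and fibroblast markers they were 0 of 12, 1 of 5, 1 of 3, 1 of 3 and 0 of 3. CEBPA and HBA1 were lower and CD3E was higher, where 5.44% of all genes passed in either direction. The scanner values gave 0, 0, 1, 1 and 1 in the same order. There CD3E and COL1A2 were higher and HBA1 was lower, and 3.08% of all genes passed in either direction. Nothing is read from counts this small. No paired analysis was possible because each group held 1 sample, and no replicate could be left out. The 3 arrays limit the precision of every value.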

Other observations

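The series matrix and the scanner file of DKO + H2A.Z1 disagreed about LITAF. The matrix value over the processed signal was 0.452 at probe 1 and 0.440 at probe 2, while the median ratio over 29179 spots well above background on all arrays was 1.02 in that sample. On the log2 scale the LITAF spots thus deviated by -1.17 and -1.21, and 97.8% and 98.0% of these spots deviated less in either direction. The matrix values were 16910.2 and 4448.5. The level of LITAF in that column, 2.45 as a mean of both probes, lay above the wild-type level of -1.03 and below the truncated level of 3.49. FABP5 changed sign between the sources, from 3.18 above wild type to 3.03 below it, whereas RGS20 stood at 5.03 and 5.05 and TST at 6.46 and 6.10 with the scanner and matrix values.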
